A study of Homo sapiens with 10 samples.

Results

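Rb occupancy was examined at 10 genes of the oestrogen receptor and its response: ESR1, PGR, GREB1, XBP1, CELSR2, IGFBP4, STC2, CYP26B1, RET and FOXC1. Their peaks were those that overlapped a promoter of the gene, from 2000 bp upstream to 500 bp downstream of any annotated transcript start, together with peaks outside all promoters whose nearest protein-coding gene start belonged to one of the 10. Of 87112 Rb peaks in all 8 Rb libraries, 80 met this rule, 43 at promoters and 37 outside them. The genes had been selected on the presence and absence of Rb peaks in these same libraries, so the differences between treatments are a description and were not tested. Both cell lines, OVCAR-3 and Kuramochi, derive from human ovarian cancers of the high-grade serous type, were labelled wild type and grew in the same medium. Each line received 300 nM of the CDK2 inhibitor INX-315 or an equal volume of its solvent DMSO for 2 days, and each of the 4 groups of line and treatment had 2 Rb libraries. Each line also had 1 control library from DMSO-treated cells made with IgG2a. The measurement was CUT&RUN, in which an antibody on permeabilised cells directs a nuclease to cut out the DNA next to its target, and the cut fragments are sequenced. The study describes the replicates of each treatment as separate biological ones.

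The oestrogen receptor alpha, encoded by ESR1, is a nuclear receptor that binds oestrogen response elements in enhancers and promoters and recruits co-activators. Its response genes are best known from breast cancer cells, where PGR and GREB1 are classical targets, and ovarian cancers can also express the receptor. Rb is a pocket protein that represses E2F-driven cell cycle genes while it is hypophosphorylated, and phosphorylation by cyclin-dependent kinases, CDK2 among them, inactivates it. The study asked where Rb sits on chromatin once a kinase inhibitor has activated it. A peak gives occupancy of Rb near a gene and does not measure the gene's transcription.

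The 10 genes carried more Rb peaks under INX-315 than under DMSO in both lines, with 68 of the 80 peaks in the 4 INX-315 libraries and 12 in the 4 DMSO libraries. In OVCAR-3 the DMSO libraries held 1 and 4 of these peaks and the INX-315 libraries 14 and 23. In Kuramochi the DMSO libraries held 2 and 5 and the INX-315 libraries 18 and 13. The treatments did not overlap in either line, and neither did the lengths of the whole peak lists. The IgG2a libraries of both lines held 0 peaks at or nearest to these genes. The INX-315 lists were longer throughout, with 13031 to 17281 peaks against 5221 to 8794 under DMSO. For OVCAR-3 the whole lists ran to 6162 and 7984 peaks with the solvent, then 13031 and 17281 with the inhibitor. For Kuramochi they ran to 5221 and 8794, then 15244 and 13395. Most peaks of all genes thus also came from INX-315 libraries, so the 68 of 80 is not by itself particular to these genes. Depth, the average count of fragments over each base of the genome, was 0.216 to 0.421 under INX-315 and 0.380 to 0.501 under DMSO, and its part in the list lengths was not tested.

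Counted by gene, 1 of the 10 promoters had a peak in each OVCAR-3 DMSO library, beside 30.1% and 37.0% of all 19962 protein-coding genes. The INX-315 libraries of OVCAR-3 had 7 and 9 of 10, beside 56.0% and 64.9%. In Kuramochi 0 and 3 of 10 promoters had a peak under DMSO, beside 26.3% and 39.0%, and 7 and 6 of 10 under INX-315, beside 59.8% and 55.3%. The 10 promoters thus lay below the background share in all 4 DMSO libraries and above it in all 4 INX-315 libraries. Since the genes were chosen on such calls, nothing is read from this.

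**Figure D1:**
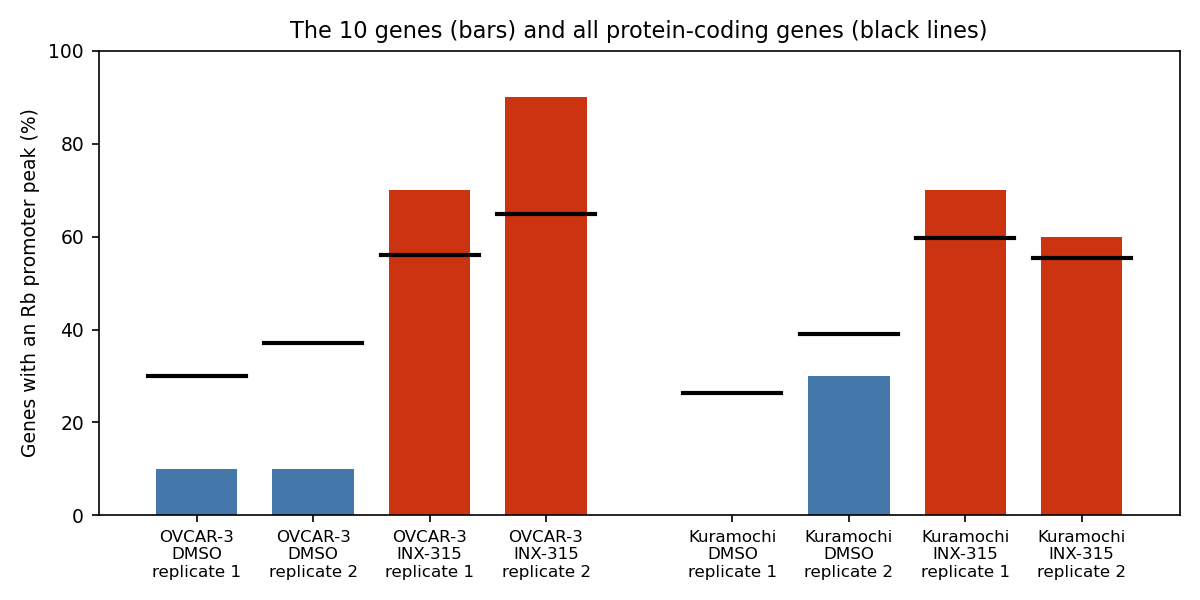
Percentage of genes with an Rb promoter peak in each of the 8 Rb libraries (vertical axis), as bars for the 10 genes and black lines for all 19962 protein-coding genes, with DMSO in blue and INX-315 in red. The bars stand below the lines in the 4 DMSO libraries, with no bar in Kuramochi DMSO replicate 1, and above them in the 4 INX-315 libraries.

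A promoter was called bound when both replicates of a group had a peak in it. Under DMSO, 0 of the 10 promoters were bound in OVCAR-3 and 0 in Kuramochi, beside 26.8% and 24.9% of all protein-coding genes. With the inhibitor, OVCAR-3 had 7 bound and Kuramochi 6, beside 55.5% and 53.2%. A promoter was called gained when a line had a peak there in both of its INX-315 libraries but in none of its DMSO libraries. In OVCAR-3, 5 promoters were gained (PGR, XBP1, CELSR2, IGFBP4 and CYP26B1), beside 16.2% of all genes. In Kuramochi, 3 were gained (CELSR2, IGFBP4 and STC2), beside 14.0%. None was lost, with 0.00501% and 0.0150% of all genes lost in OVCAR-3 and Kuramochi. Both CELSR2 and IGFBP4 were gained in both lines, as were 1109 genes, or 5.56%, of all. Among genes with no DMSO peak in the line, INX-315 peaks in both libraries were found at 5 of 8 members and 27.1% of all such genes in OVCAR-3, and at 3 of 7 members and 23.5% in Kuramochi. With every list of a line shortened to the same length by rank of p-value, 0 promoters were gained in either line. Without Kuramochi DMSO replicate 2, 6 promoters were gained in Kuramochi, with CYP26B1, RET and FOXC1 added. The call then asked for no peak in the remaining DMSO library only, so the number could not fall.

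The peaks ranked low in their lists. The median percentile of the 80 peaks by p-value within their own library was 30.6, with a range of 0.689 to 80.5, and 19 of 80 lay above the 50th percentile. The number of fragments at a summit was between 4 and 40 with a median of 9. At the median, therefore, the height of a peak rested on a count with an exact Poisson 95% interval of 4.12 to 17.1 fragments, which covers counting error only. Of the 43 promoter peaks, 25 had their summit within 500 bp of a start of the gene.

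**Figure D2:**
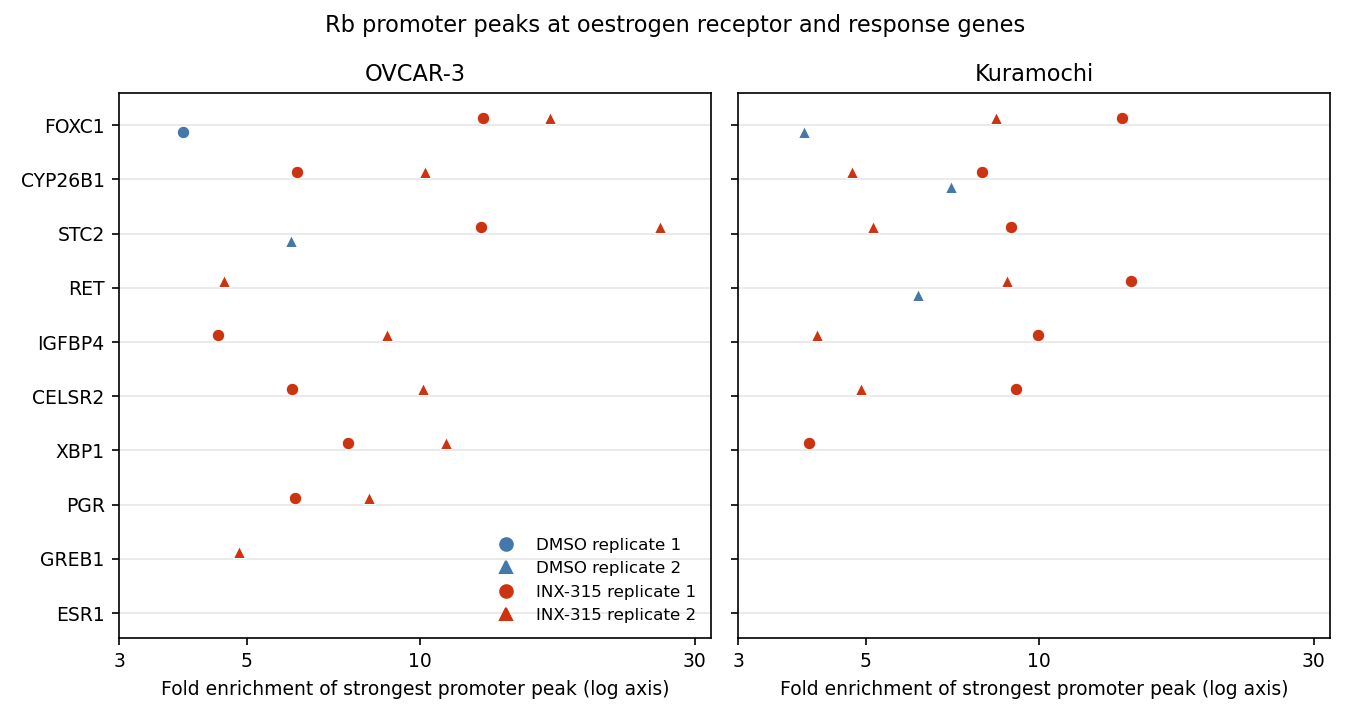
Fold enrichment of the strongest promoter peak of each of the 10 genes in OVCAR-3 (left) and Kuramochi (right), on a horizontal log axis. It is the summit height plus 1 over the local background plus 1. DMSO is in blue and INX-315 in red, with circles for replicate 1 and triangles for replicate 2. No point is drawn where no peak was called. Points of DMSO libraries appear at STC2 and FOXC1 in OVCAR-3 and at CYP26B1, RET and FOXC1 in Kuramochi, and ESR1 has none.

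Of the nuclear receptors, ESR1 (chr6:151656691-152129619 in hg38, plus strand) had no promoter peak in any of the 8 Rb libraries at any of its 12 annotated starts. This held for 6232 protein-coding genes (31.2%), ESR1 among them, so no gene could be ranked as most like it. PGR (chr11:101029624-101129813, minus strand), the progesterone receptor, had a fold enrichment of 6.07 in OVCAR-3 INX-315 replicate 1 and 8.16 in replicate 2, and no promoter peak in the other 6 libraries. Fold enrichment here is the summit height plus 1 over the local background plus 1, as listed with each peak. The added constant lowers the ratio more where counts are low. The PGR summits lay 2150 and 2205 bp inside the gene from its canonical start, in an exon of PGR, and near starts annotated for shorter PGR transcripts and for the antisense gene PGR-AS1. The assay does not tell the strands apart, so the peak cannot be given to either of the overlapping genes. The pattern of PGR over the 8 libraries was that of 394 genes, PGR among them, or 1.97% of all.

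GREB1 (chr2:11482341-11642788, plus strand), a chromatin-bound cofactor of the receptor, had a promoter peak in 1 library, OVCAR-3 INX-315 replicate 2, with a fold enrichment of 4.85. It lay in an intron, at −1864 bp from an internal start, and its local background was 4.48 times the mean of the library. XBP1 (chr22:28794555-28800597, minus strand), a transcription factor of the unfolded protein response, had values of 7.50 and 11.1 in INX-315-treated OVCAR-3 and 3.97 in Kuramochi INX-315 replicate 1. No XBP1 peak was called in the other 5 libraries. Each XBP1 peak also overlapped a promoter of a gene without a symbol (ENSG00000226471), so it cannot be given to XBP1 alone. The XBP1 summits rested on 16 and 31 fragments in OVCAR-3 and on 9 in Kuramochi, the last with an exact Poisson 95% interval of 4.12 to 17.1. The local background at those peaks was 3.74 to 4.48 times the library mean.

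CELSR2 and IGFBP4 showed a peak in every INX-315 library and in no DMSO library. CELSR2 (chr1:109249539-109275751, plus strand), an adhesion G-protein-coupled receptor of the cadherin superfamily, had a fold enrichment of 5.99 and 10.1 in OVCAR-3, and Kuramochi had 9.12 and 4.91. Its summits lay 2 to 80 bp after the canonical start in all 4 libraries, on 5 to 14 fragments. IGFBP4 (chr17:40443450-40457725, plus strand), a secreted binding protein of insulin-like growth factors, had values of 4.45 and 8.76 in OVCAR-3, and Kuramochi had 9.97 and 4.11. The lowest of these rested on 4 fragments (exact Poisson 95% interval 1.09 to 10.2). IGFBP4 summits lay 279 to 549 bp inside the gene. Under a narrower promoter, from 1000 bp upstream to 100 bp downstream, IGFBP4 was not gained in either line. It was also not gained in OVCAR-3 when the summit had to lie in the promoter, nor in Kuramochi at a q-value of 0.001, so that it was gained in each line in 6 of 9 alternative settings. CELSR2 was gained in each line in 8 of the 9, lists of equal length being the exception.

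STC2 (chr5:173314723-173328447, minus strand), a secreted glycoprotein of the stanniocalcin family, held the highest promoter value of the 10 genes. No peak was called in OVCAR-3 DMSO replicate 1. In DMSO replicate 2 there were 2 short peaks of 5.12 and 5.97, and the INX-315 libraries had 12.8 and 26.1. In Kuramochi there was no peak under DMSO, and the strongest peaks under INX-315 were 8.94 and 5.14. The peak of 26.1, on 40 fragments (exact Poisson 95% interval 28.6 to 54.5), was 2945 bp wide, and the corresponding peak of INX-315 replicate 1 was 1762 bp wide. The 2 DMSO peaks were 398 and 450 bp wide. The strongest Kuramochi peaks were 265 and 294 bp wide. The median promoter peak of a library was 496 to 612 bp wide under DMSO and 682 to 895 bp under INX-315. The wide domain at STC2 was thus a feature of the OVCAR-3 INX-315 libraries, and the difference between the lines was not tested.

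CYP26B1 (chr2:72129238-72147862, minus strand), which degrades retinoic acid, had several separate promoter peaks and accounted for 11 of the 43. Its strongest were 6.12 and 10.2 in INX-315-treated OVCAR-3, 7.04 in Kuramochi DMSO replicate 2, and 7.97 and 4.73 in the Kuramochi INX-315 libraries. The other 3 DMSO libraries had no promoter peak. In both OVCAR-3 INX-315 libraries and in Kuramochi INX-315 replicate 1, the strongest peak had its summit 2922 to 2988 bp inside the gene, close to an internal start and to a gene without a symbol (ENSG00000289615). A second site, with summits between −1162 and −1024 bp from the canonical start, had a peak in all 4 INX-315 libraries, with values of 4.59 and 7.04 for OVCAR-3 and of 5.99 and 4.73 for Kuramochi, and in no DMSO library. The site inside the gene also had a peak in Kuramochi DMSO replicate 2, with its summit at 2866 bp.

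RET (chr10:43077064-43130351, plus strand), the receptor tyrosine kinase for ligands of the GDNF family, had a promoter peak of 4.56 in OVCAR-3 INX-315 replicate 2 and in no other OVCAR-3 library. In Kuramochi its values were 6.15 in DMSO replicate 2 and 14.5 and 8.81 under INX-315, on 9, 23 and 11 fragments. FOXC1 (chr6:1609915-1613897, plus strand), a forkhead transcription factor of mesenchymal and neural crest development, had a promoter peak in 6 libraries, more than any other of the 10 genes. These were 3.88 in OVCAR-3 DMSO replicate 1, 12.9 and 16.8 under INX-315, 3.90 in Kuramochi DMSO replicate 2, and 13.9 and 8.43 under INX-315. Every INX-315 value of FOXC1 was above both DMSO values. Its strongest INX-315 peaks were 1431 to 3149 bp wide and its DMSO peaks 311 and 632 bp. Because 1 DMSO library of each line had a low peak there, FOXC1 was not called gained in either. With a stricter q-value of 0.001, it was gained in both.

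**Figure D3:**
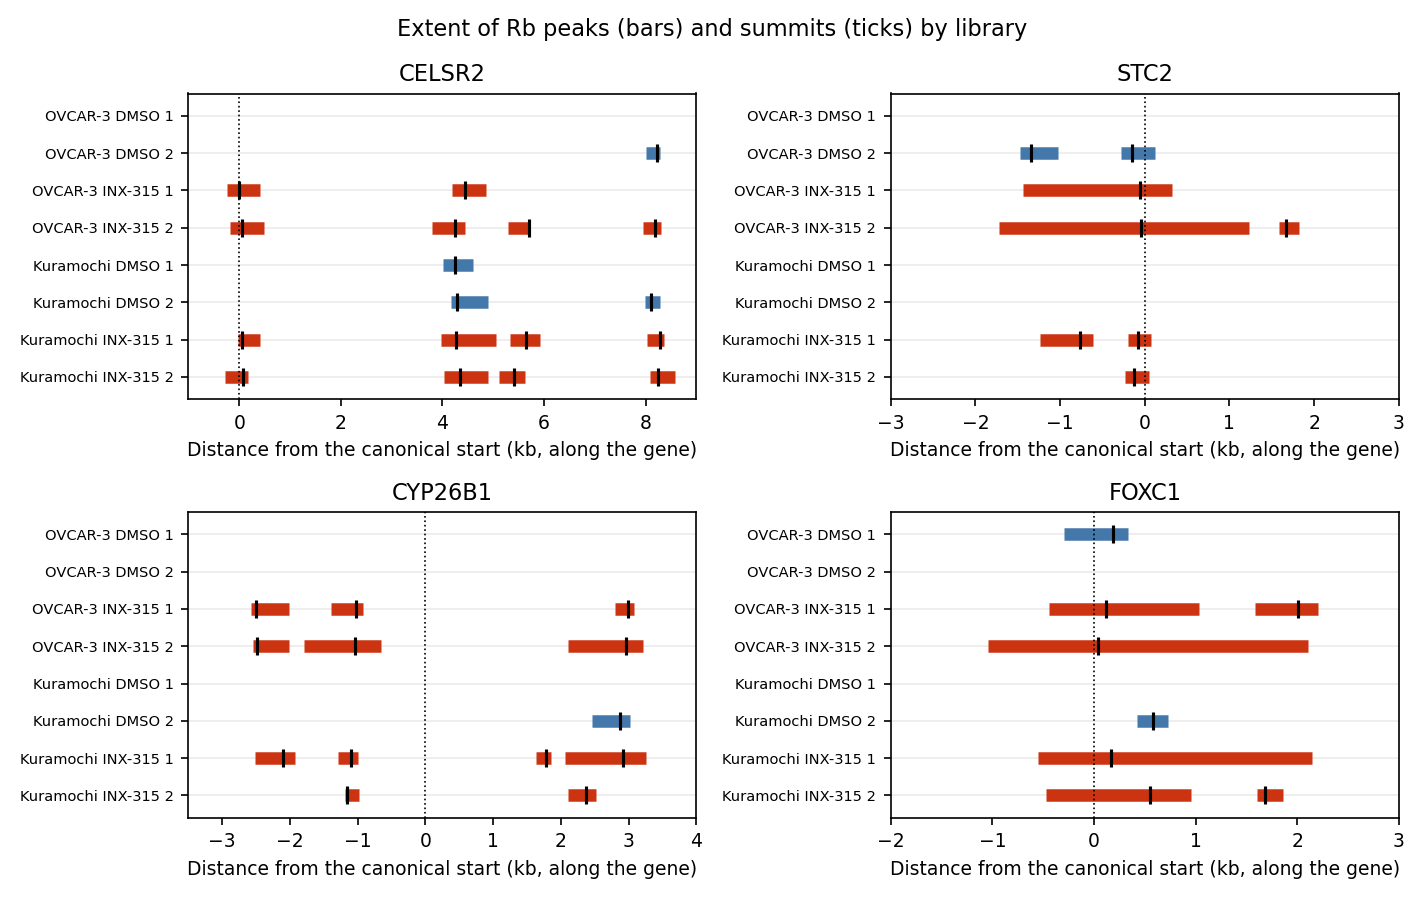
Extent of each Rb peak (horizontal bars) and its summit (black ticks) around CELSR2, STC2, CYP26B1 and FOXC1, by distance from the canonical start in kb along the gene (dotted line at 0), with 1 row per Rb library, DMSO in blue and INX-315 in red. CELSR2 has peaks at its start only in the 4 INX-315 rows and a second group of peaks inside the gene that the Kuramochi DMSO rows share, and the widest bars are those of STC2 and FOXC1 in the INX-315 rows.

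The order of the genes by number of libraries with a promoter peak was FOXC1 (6), STC2 and CYP26B1 (5 each), CELSR2, IGFBP4 and RET (4 each), XBP1 (3), PGR (2), GREB1 (1) and ESR1 (0). Neighbours in this order differed by at most 1 library. Within a group, replicates differed as well, as with the OVCAR-3 INX-315 values of STC2, 12.8 and 26.1. In Kuramochi, INX-315 replicate 2 had the lower fold enrichment at all 6 promoters with a peak in both treated libraries, and it was also the shallower, with 0.216 fragments per base against 0.405. In OVCAR-3, INX-315 replicate 2 had the higher fold enrichment at all 7 such promoters and was the deeper, with 0.421 against 0.307. The part of depth in these values was not tested.

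The promoters of these genes were compared by base composition, which the choice of genes had not used. RefSeq promoters of the GRCh38.p14 assembly, from 250 bases before to 50 after the start, were matched for 9 of the 10 genes. XBP1 and FOXC1 had 40 CpG dinucleotides each and RET had 41, where the median of 27305 promoters was 14. CELSR2 and IGFBP4 had 30 each, STC2 had 28, CYP26B1 had 19 and PGR had 15. The PGR window (chr11:101129028-101129327) held neither its canonical start (chr11:101129813) nor its Rb summits. In 201 bases at its strongest summit (chr11:101127608), PGR had 29 CpG and 79.1% GC. ESR1 had 4, in a window at its most upstream start (chr6:151656422-151656721). Its canonical start lies at chr6:151807682, and composition there and at its other starts was not measured. GREB1 had no entry. The GC content was 36.3% in this ESR1 window and 62.7% to 78.7% in the other 8 genes, beside a median of 58.3%. Promoter regions with Rb peaks were also compared, in windows of 201 bases at the strongest summit. The 13 such regions of these genes had medians of 64.7% GC and 16 CpG. All 16143 such regions had higher medians, of 68.7% GC and 19 CpG.

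The 2 promoter sequences shown here carry summits that lie outside annotated exons. They are 121 bases of hg38, plus strand, centred on the strongest summit, in lower case with each CpG in capitals. RET is shown for its summit in the first part of the gene (21 CpG), and CYP26B1 for the upstream site found in all 4 INX-315 libraries.
RET promoter, chr10:43077456-43077576: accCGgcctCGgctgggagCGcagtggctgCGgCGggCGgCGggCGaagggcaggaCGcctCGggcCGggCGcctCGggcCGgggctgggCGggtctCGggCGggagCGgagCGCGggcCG
CYP26B1 upstream site, chr2:72148848-72148968: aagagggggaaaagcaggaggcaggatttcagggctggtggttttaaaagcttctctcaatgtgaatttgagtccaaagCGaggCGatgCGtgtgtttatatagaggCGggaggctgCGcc

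Outside promoters, 37 peaks were nearest to 7 of the 10 genes, 31 in INX-315 libraries and 6 in DMSO libraries, and CELSR2 alone had 16 of them. No such peak was nearest to PGR, XBP1 or IGFBP4. Non-promoter peaks of all genes were also more numerous with the inhibitor, whose lists were longer and had smaller promoter shares. Promoters held 88.0% and 81.4% of peaks in treated OVCAR-3, beside 91.9% and 89.2% with the solvent. For Kuramochi the shares were 83.9% and 86.4%, beside 93.0% and 86.9%. The 31 against 6 is therefore not by itself particular to these genes. Merged within a line, the 37 peaks formed 13 regions in OVCAR-3 and 9 in Kuramochi. Of these, 5 were gained in OVCAR-3, beside 14.6% of all 4025 non-promoter regions of that line, and 2 in Kuramochi, beside 10.8% of 3837. The number gained was 11 without OVCAR-3 INX-315 replicate 1, was 4 and 5 without Kuramochi INX-315 replicates 1 and 2, and was 0 in both lines with lists of equal length. Where an INX-315 replicate was left out, the call asked for a peak in the remaining replicate only. Assignment to the nearest gene start is by distance only and does not show that a region acts on that gene.

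The most prominent region lay upstream of FOXC1. It was intergenic and spanned chr6:1554986-1555524 in OVCAR-3 and chr6:1554801-1555459 in Kuramochi, with summits between −54762 and −54672 bp from the FOXC1 start. Its fold enrichment was 6.78 and 8.94 in INX-315-treated OVCAR-3 and 18.6 and 5.38 in the Kuramochi INX-315 libraries, and no peak was called there in any DMSO library. The 18.6 rested on 28 fragments (exact Poisson 95% interval 18.6 to 40.5) and the 5.38 on 6 (2.202 to 13.1), which in multiples of the library means were 69.1 and 27.8. It was the only non-promoter region of these genes gained in both lines. Among all annotated genes, a gene without a symbol (ENSG00000272279) was nearer to it than FOXC1. Next to the FOXC1 promoter, separate peaks in the coding exon had 5.64 in OVCAR-3 INX-315 replicate 1 and 6.10 in Kuramochi INX-315 replicate 2, with summits 2005 and 1681 bp after the start, and merged with wider promoter peaks of the other INX-315 library of the line.

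CELSR2 had 4 regions inside the gene. The first, chr1:109253332-109254389 in OVCAR-3 and chr1:109253503-109254595 in Kuramochi, had summits 4255 to 4451 bp after the canonical start. It was gained in OVCAR-3, with 5.13 and 6.18 under INX-315 and no peak under DMSO. In Kuramochi it had a peak in every library, with 9.86 and 7.77 in DMSO cells, then 13.9 and 9.87 with INX-315. It was the only region, at or outside promoters of these genes, with a peak in both DMSO libraries of a line. By fold enrichment the Kuramochi treatments hardly separated there, since DMSO replicate 1 (9.86) and INX-315 replicate 2 (9.87) were nearly equal. As multiples of the library means, the same summits stood at 31.5 (DMSO replicate 1) and 26.3 (DMSO replicate 2). The summits of the treated libraries reached 49.4 (replicate 1) and 50.9 (replicate 2), so the treatments did not overlap on that measure. These summits rested on 10 to 20 fragments, and the difference was not tested. The second region, chr1:109254647-109255460, was gained in Kuramochi with 5.98 and 4.73, and had a peak of 5.10 in OVCAR-3 INX-315 replicate 2. The third, chr1:109257523-109258124 in Kuramochi, had 6.07 in DMSO replicate 2 and 10.6 and 8.63 under INX-315. At the same site, OVCAR-3 had 5.01 in DMSO replicate 2 and 8.65 in INX-315 replicate 2. The fourth, in the last exon and its untranslated part, had 5.43 in OVCAR-3 INX-315 replicate 2 and 6.64 in Kuramochi INX-315 replicate 1.

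**Figure D4:**
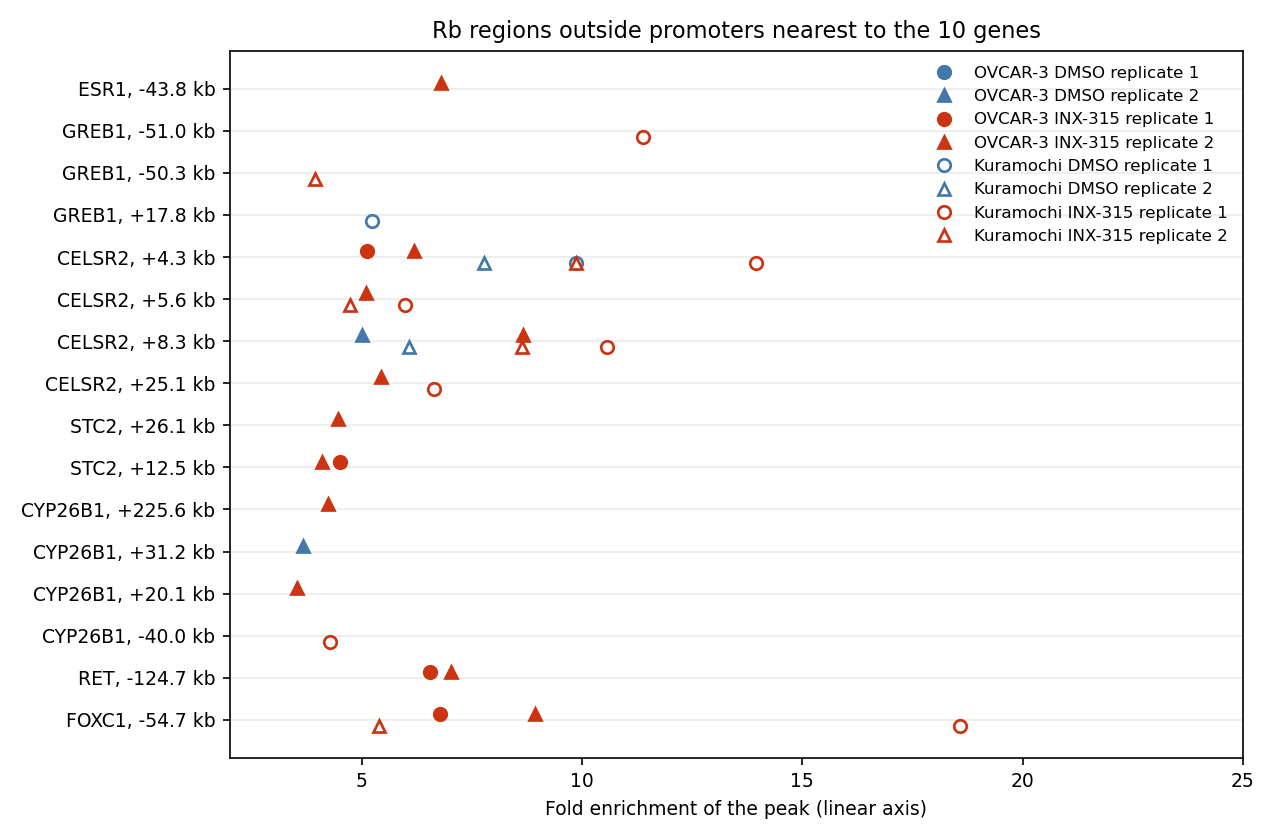
Fold enrichment (horizontal linear axis) of Rb peaks in the 16 non-promoter regions of all 8 Rb libraries nearest to these genes, labelled by gene and by distance of the strongest summit from the canonical start, with filled symbols for OVCAR-3, open symbols for Kuramochi, DMSO in blue, INX-315 in red, circles for replicate 1 and triangles for replicate 2. DMSO points appear in 4 of the 16 regions, at GREB1, CELSR2 (2 regions) and CYP26B1, and the highest value is the 18.6 upstream of FOXC1.

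The remaining gained regions were OVCAR-3 ones. An intergenic region upstream of RET, chr10:42951946-42952595, had 6.53 and 7.02 under INX-315, with summits at −124897 and −124657 bp, and none of the 4 Kuramochi libraries had a peak there. Its nearest gene of any type was LINC01264. A region in the untranslated part of the last STC2 exon, chr5:173315757-173315993, had 4.495 and 4.097, each on 5 fragments (exact Poisson 95% interval 1.62 to 11.7). A region upstream of CYP26B1, chr2:72149879-72150433, had 4.61 and 3.31. The last of these lay 16 and 21 bp outside the promoter window in the OVCAR-3 INX-315 libraries, whereas a Kuramochi INX-315 replicate 1 peak at the same site overlapped the window by 72 bp and counted as a promoter peak.

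The other regions were seen in 1 library each. For ESR1 the single peak, chr6:151763817-151764198 in OVCAR-3 INX-315 replicate 2, had a fold enrichment of 6.79 on 9 fragments (exact Poisson 95% interval 4.12 to 17.1). It lay in an intron of a long ESR1 transcript, −43754 bp from the canonical start. GREB1 had peaks of 11.4 and 3.94 at chr2:11482846-11483351 and chr2:11483551-11483754, in Kuramochi INX-315 replicates 1 and 2 respectively, both in the intron after its most upstream start. These peaks did not overlap, and the first lay 4 bp outside the promoter window. A further GREB1 peak of 5.23, at chr2:11551696-11551932, was in Kuramochi DMSO replicate 1. STC2 had 1 intergenic peak of 4.46 (OVCAR-3 INX-315 replicate 2). CYP26B1 had 4, from 3.52 to 4.27, of which 3.65 was in OVCAR-3 DMSO replicate 2, and the one in Kuramochi INX-315 replicate 1 lay in an intron of EXOC6B. Just inside the promoter window were the FOXC1 and RET peaks of Kuramochi DMSO replicate 2, which overlapped it by 82 and 165 bp.

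Windows of 121 bases of hg38 (plus strand) around the strongest summit are shown for 5 non-promoter regions, to set the region gained in both lines beside one already occupied under DMSO, one gained in OVCAR-3, the single ESR1 peak and the GREB1 peak next to its promoter window. Each CpG is in capitals. The FOXC1 and GREB1 windows held 16 and 18 CpG, and those of CELSR2, RET and ESR1 held 3, 3 and 5.
FOXC1 upstream region, chr6:1555157-1555277: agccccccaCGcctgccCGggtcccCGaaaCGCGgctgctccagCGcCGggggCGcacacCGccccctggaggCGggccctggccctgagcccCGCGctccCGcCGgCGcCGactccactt
CELSR2 first intragenic region, chr1:109253744-109253864: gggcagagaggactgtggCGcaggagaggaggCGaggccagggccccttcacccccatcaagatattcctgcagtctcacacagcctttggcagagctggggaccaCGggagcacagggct
RET upstream region, chr10:42952352-42952472: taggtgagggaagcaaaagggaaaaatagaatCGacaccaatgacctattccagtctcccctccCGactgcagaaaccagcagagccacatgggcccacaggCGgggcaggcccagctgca
ESR1 intronic peak, chr6:151763868-151763988: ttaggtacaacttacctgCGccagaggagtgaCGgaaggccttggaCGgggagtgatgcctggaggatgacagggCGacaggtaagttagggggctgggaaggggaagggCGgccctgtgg
GREB1 intronic peak, chr2:11482938-11483058: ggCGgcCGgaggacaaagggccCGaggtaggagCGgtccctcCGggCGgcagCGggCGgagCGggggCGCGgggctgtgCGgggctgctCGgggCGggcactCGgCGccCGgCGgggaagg

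Motif strings were sought on both strands in 201 bases around the strongest summit of each region, merged over all 8 libraries, which gave 13 promoter and 16 non-promoter regions for these genes beside 16143 and 6617 for all genes. The oestrogen response element, GGTCA and TGACC separated by 3 bases, was found in 0 of the 13 and 0 of the 16, beside 0.00619% and 0.0151% of all. Its single arm AGGTCA, which can overlap the full element, was in 1 of 13 promoter regions (7.69%, beside 6.38%) and 2 of 16 others (12.5%, beside 11.9%). The promoter match was at CYP26B1, and the others were at CYP26B1 and in the upstream RET region, where TGACCT stood at chr10:42952393-42952398. The E2F strings TTTGGCGC, TTTCCCGC, TTTGCCGC and TTTCGCGC were in 0 of 13 (3.88% of all) and 2 of 16 (2.51% of all). These 2 were the second CELSR2 region (TTTCCCGC) and the intergenic STC2 peak (GCGGCAAA, the reverse strand of TTTGCCGC). The AP-1 strings TGACTCA and TGAGTCA were in 0 of 13 (1.51% of all) and 1 of 16 (4.19%). The forkhead strings TGTTTAC and TATTTAC were in 0 of 13 and 0 of 16 (1.42% and 3.54%), and the cell cycle homology string TTTGAA was in 0 of 13 and 1 of 16 (3.96% and 8.28%). With so few regions, 1 match makes up 6.25% of the 16, and a match is not evidence of a bound factor.

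The 10 genes were set beside 4 other lists. Of 60 other oestrogen response genes, DMSO-treated OVCAR-3 cells had 19 bound and INX-315-treated ones 42, and the Kuramochi counts were 15 and 39. Gained promoters numbered 9 in OVCAR-3 (15%, beside 16.2% of all genes) and 12 in Kuramochi (20%, beside 14.0%). By the naming rule, the genes gained in both lines were MAPT, FKBP4 and WFS1. MAPT, which encodes the microtubule protein tau, reached 10.4 and 21.1 in OVCAR-3 treated with INX-315 and 10.7 and 9.87 in treated Kuramochi, as fold enrichment. FKBP4, a co-chaperone of steroid receptors, had 10.96 and 9.78, and 6.64 and 9.46. WFS1, a membrane protein of the endoplasmic reticulum, had 5.14 and 8.32, and 13.3 and 9.46. The gained share of the wider set was thus below that of all genes in OVCAR-3 and above it in Kuramochi. Its bound shares under INX-315 were 70% and 65%, beside 55.5% and 53.2% of all genes. Among genes with no DMSO peak in the line, 33.3% and 36.4% of the set were gained, beside 27.1% and 23.5%. These differences were not tested.

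Among 18 co-regulators of the receptor, the bound count went from 7 in DMSO to 15 in INX-315 cells of OVCAR-3. In Kuramochi it went from 5 to 15, and 4 co-regulators (22.2%) were gained in each line. MED1, the Mediator subunit that contacts nuclear receptors, was gained in both, with 9.87 and 8.16 for OVCAR-3 and with 9.25 and 4.93 for Kuramochi. The bound share of all protein-coding genes rose as well, from 26.8% to 55.5% in OVCAR-3 cells and from 24.9% to 53.2% in Kuramochi cells. Of all genes, 16.2% were gained in OVCAR-3, and the Kuramochi share was 14.0%. Of 7 other steroid and oestrogen-related receptors, 4 were bound under DMSO in each line, and 5 and 4 under INX-315, with 1 and 0 gained. As a reference, 19 of 20 E2F cell cycle genes were already bound under DMSO in each line and all 20 were under INX-315, with 1 and 0 gained. None of these lists had a lost promoter. Differences between lists were not tested.

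**Figure D5:**
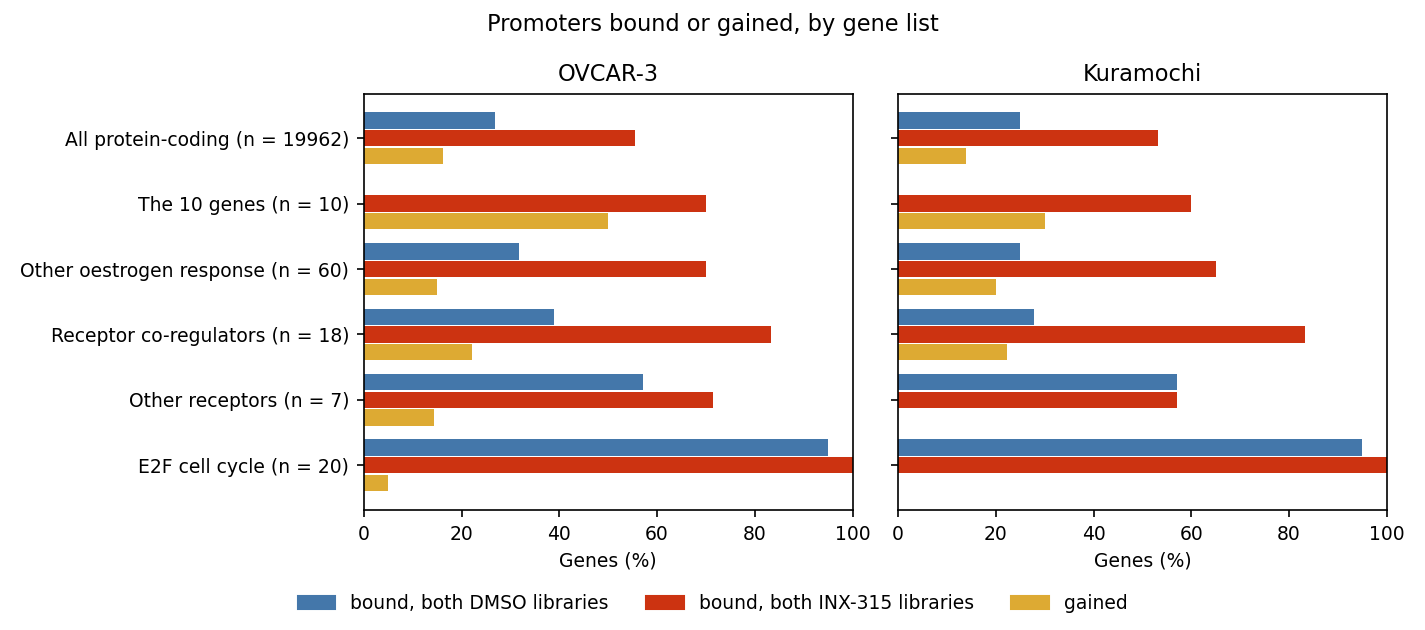
Percentage of genes (horizontal axis) bound in both DMSO libraries (blue), bound in both INX-315 libraries (red) or gained (yellow) in OVCAR-3 (left) and Kuramochi (right), for all protein-coding genes, the 10 genes and 4 other lists. The 10 genes have no blue bar in either line. The other oestrogen response genes have gained shares of 15% and 20%, beside 16.2% and 14.0% of all genes. The E2F list is bound at 95% under DMSO.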

How the data were processed

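The authors aligned the reads to hg38 with Bowtie2 2.3.4.1, removed yeast, mitochondrial and blacklisted reads, kept duplicates, and called peaks in each Rb library separately with MACS2 2.2.7.1 against the IgG2a library of the line (q-value threshold 0.05). The deposited lists give each peak a fold enrichment as well as significance as −log10 of p and −log10 of q, all written by the authors' caller. Fold enrichment is a linear ratio of summit height to local background, each raised by the constant given above. Because libraries were called separately and their values were not scaled to a spike-in in this work, the absence of a peak can reflect signal strength.

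Here, promoters came from 219654 distinct transcript starts of GENCODE release 44, and an overlap of 1 bp counted. No peak on the 23 chromosomes with Rb peaks ran past the end of the reference. The whole number of fragments at a summit and the local background were recovered from fold enrichment and p-value for 98.6% or more of the peaks in any Rb library (relative tolerance 3e-05), and the genome-wide mean background gave the depth. Scripts were written in Python 3.11.15 with scipy 1.17.1 and tested on simulated data. No test was made, since presence in 2 against 2 libraries cannot reach significance. Genes named were all 10 members, and of other lists at most 3 genes, those gained in both lines whose mean rank under INX-315 was highest. The members and lists were chosen with earlier results of these data known. Alternatives were a q-value of 0.001, lists of equal length, stricter overlap, a narrower promoter, protein-coding transcripts alone, other nearest-gene rules, and leaving out each library.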

Additional observations from a re-analysis of the deposited data

How the results depend on the processing

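With lists of equal length within a line, OVCAR-3 had 2 promoters bound under INX-315, 0 gained, and 0 non-promoter regions of which 0 were gained, and Kuramochi had 0, 0, 4 and 0. A q-value of 0.001 left 3 gained non-promoter regions in OVCAR-3, and assignment to the nearest gene of any type left 3 in OVCAR-3 and 1 in Kuramochi. Leaving out each library in turn gave, in OVCAR-3, 0 to 1 promoters bound under DMSO, 7 to 9 under INX-315, 5 to 7 gained, 8 to 13 non-promoter regions (8 without INX-315 replicate 2) and 5 to 11 gained ones (11 without INX-315 replicate 1). In Kuramochi it gave 0 to 3 (3 without DMSO replicate 1), 6 to 7, 3 to 6 (6 without DMSO replicate 2), 7 to 9, and 2 to 5 (4 and 5 without INX-315 replicates 1 and 2). Of 98 alternative values for 10 counts, 79 stayed within 1.5 times the reported count. Shortening the lists removes the weaker peaks by construction, and these genes' peaks ranked low. Leaving out a library lets the remaining replicate of its group decide the call alone. Counts of bound and gained promoters can therefore only stay or rise, and the rule for a gained region is loosened in the same way. No paired analysis was possible because the results come from no test. Summits of 4 to 40 fragments limit the precision of single heights, and the cause of the other changes was not tested.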
